A study of Mus musculus with 6 samples.

Results

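Interferon-induced genes were examined in the livers of male C57BL/6 mice that expressed Sonic Hedgehog (SHH, the ligand that starts Hedgehog signalling; mice 26, 28 and 31) or, as controls, green fluorescent protein (GFP; mice 6, 13 and 21). The list held 40 genes, picked by name with earlier results of these data known. Of the 40, 37 were among the 22180 genes measured on the array. Each gene was read from the probe set naming it alone that had the highest mean over the 6 arrays, 1 array per mouse. Gbp2 and Oas1a lay on probe sets that also name a relative and Ifi44 was not matched to a probe set, so these 3 were not analysed here. DNA was introduced by hydrodynamic transfection, a fast high-volume injection after which hepatocytes take up DNA. Both groups were housed free of specific pathogens and are labelled as untreated otherwise. Neither the mice's age, the time after injection, the promoter nor the share of hepatocytes carrying the DNA is given in the sources used here. The labels name separate mice, so the spread below is between animals.

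Interferons are secreted antiviral and immune signals. Type I interferons act through the receptor subunits Ifnar1 and Ifnar2, and a factor that holds Stat2 and Irf9 then binds the interferon-stimulated response element (ISRE) in promoters of genes such as the Ifit, Oas and Mx families. Type II interferon, interferon-gamma, comes chiefly from T and natural killer cells, acts through Ifngr1 and Ifngr2, and leads to binding at the gamma-activated site (GAS). Guanylate-binding proteins (Gbp) and the immunity-related GTPases Igtp, Irgm1, Irgm2 and Iigp1, which act on vacuoles that hold microbes inside cells, are strong interferon-gamma targets in mice. The classes overlap, since most of these genes answer to both kinds of interferon. No liver here was given interferon, so the classes rest on outside knowledge and were compared only as lists.

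Of the 37 measured genes, 35 had a higher mean log2 signal in SHH livers, where 43.8% of all genes did, and the median difference was 0.26 against -0.03 over all genes. None passed the threshold of 0.05 after Benjamini-Hochberg adjustment over all genes (limma), nor did any other gene, a background of 0%. At an unadjusted limma p under 0.05, 12 of the 37 were higher and 0 lower in SHH livers, against a background of 3.33% of all genes higher (738) and 4.01% lower (889). For 11 of the 37, every SHH liver lay above every GFP liver, against 5.26% of all genes, and for 0 every SHH liver lay below, against 7.25%. The 12 became 7 without SHH 31. Without SHH 26, 46 genes of the array passed the adjusted threshold (limma), none of them listed. Differences below are therefore described with their intervals and none is called.

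The GTPases held the larger differences. All 8 measured GTPases had higher means in SHH livers, with a median difference of 0.78, and 6 of them had an unadjusted limma p under 0.05. The 10 measured Ifit, Oas and Mx genes also had higher means, but with a median of 0.17 and 3 such p-values. Differences over 0.5 on the log2 scale were seen in 6 of 8 GTPases and 2 of 10 Ifit, Oas and Mx genes, against 2.10% of all genes.

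**Figure D1:**
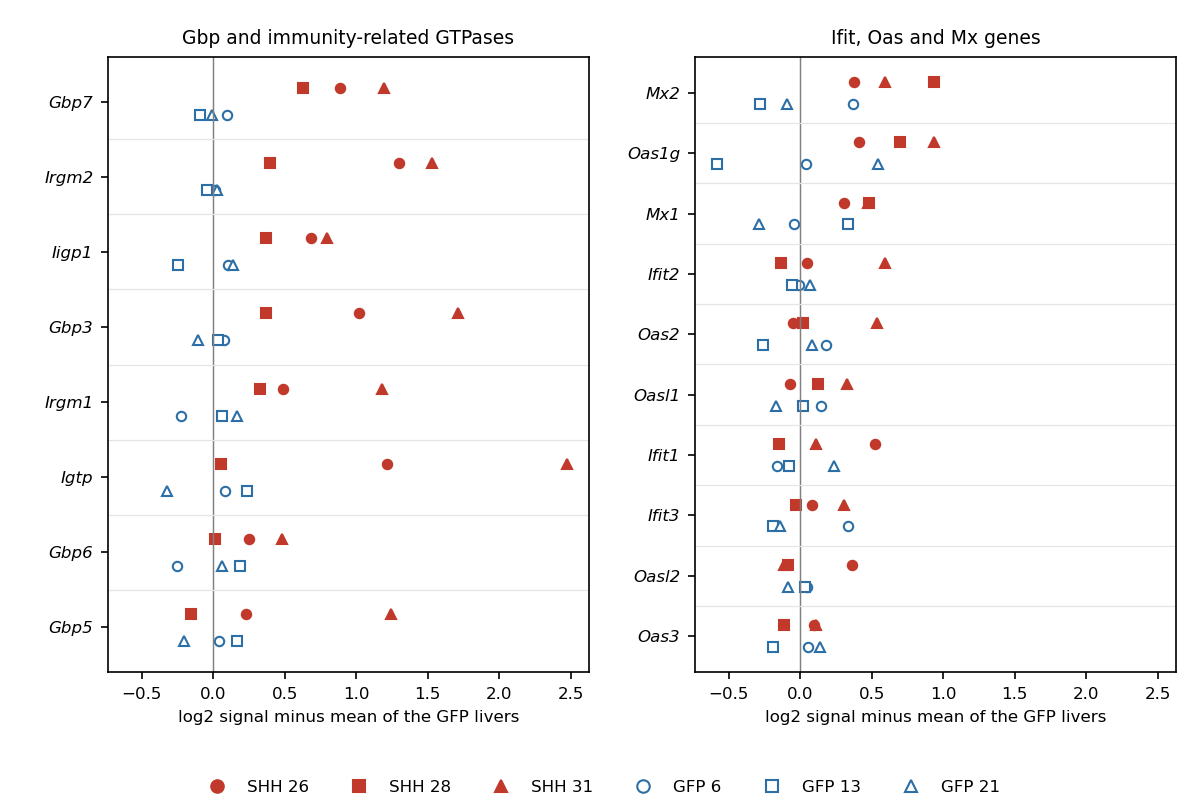
Log2 signal minus the mean of the 3 GFP livers (x axis) for the 8 measured GTPases and the 10 measured Ifit, Oas and Mx genes, with SHH livers (red, filled) above GFP livers (blue, open) in each row and 1 point per mouse. The SHH points of the GTPases spread widely to the right with SHH 31 outermost, while most Ifit and Oas points of the 2 groups overlap.

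Among the guanylate-binding proteins, Gbp7 had the smallest unadjusted p of the list. Its log2 signal was 7.27, 7.01 and 7.58 in SHH mice 26, 28 and 31, against 6.49, 6.30 and 6.38 in GFP mice 6, 13 and 21. The SHH livers all lay above the GFP livers, by 0.90 on average (95% interval 0.54 to 1.27, 1.87-fold; limma, unadjusted p = 3.54e-04, adjusted p = 0.318). Gbp3 stood at 5.94, 5.29 and 6.63 in SHH livers 26, 28 and 31, against 4.99, 4.95 and 4.82 in GFP livers 6, 13 and 21. Again the groups did not overlap, and SHH 31 was the highest; the difference was 1.03 (interval 0.39 to 1.68, 2.05-fold; limma, adjusted p = 0.504). Gbp5, which promotes inflammasome activation in macrophages, read 3.68, 3.30 and 4.70 in the SHH livers, against 3.49, 3.62 and 3.25 in the GFP livers. SHH 31 stood well clear of the GFP livers, SHH 26 just above them and SHH 28 within their range, and the difference of 0.44 (interval -0.26 to 1.14) was 0.04 without SHH 31. Gbp6 was dim, with 2.78, 2.55 and 3.02 in SHH livers against 2.29, 2.73 and 2.60 in GFP livers. On each of the 6 arrays it was under the lower quartile (3.13 to 3.22), a range in which arrays compress differences, and the groups overlapped (difference 0.25, interval -0.13 to 0.63).

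The immunity-related GTPases divide into regulators that guard the cell's own membranes (Irgm1, Irgm2 and Igtp) and effectors that coat the vacuole (Iigp1). Irgm2 had log2 signals of 8.31, 7.41 and 8.54 in SHH mice 26, 28 and 31, against 7.03, 6.97 and 7.04 in GFP mice 6, 13 and 21. The GFP livers lay close together and all SHH livers lay above them (difference 1.07, interval 0.49 to 1.66, 2.11-fold; limma, adjusted p = 0.409). Igtp had the largest difference of the list, with 7.80, 6.64 and 9.06 in SHH livers, against 6.67, 6.82 and 6.26 in GFP livers. SHH 28 lay inside the GFP range and SHH 31 far above it, so the difference of 1.25 (interval 0.13 to 2.37, 2.38-fold) was 0.64 without SHH 31 and 1.85 without SHH 28. Irgm1 gave 6.67, 6.51 and 7.36 in the SHH livers, against 5.96, 6.25 and 6.35 in the GFP livers, without overlap (difference 0.66, interval 0.16 to 1.17); without SHH 31 it was 0.41. Iigp1 was at 11.12, 10.80 and 11.23 in SHH livers, against 10.54, 10.19 and 10.58 in GFP livers, again without overlap. Its difference was 0.61 (interval 0.25 to 0.98, 1.53-fold; limma, adjusted p = 0.480).

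For all 8 GTPases, SHH 31 had the highest and SHH 28 the lowest value of the SHH livers. SHH 26 and SHH 31 lay above every GFP liver for 8 of 8 GTPases each and SHH 28 for 5 of 8, where 20.6%, 26.0% and 25.4% of all genes did in SHH 26, SHH 31 and SHH 28. Over the 37 genes, SHH 31 was the highest SHH liver for 23 and SHH 28 the lowest for 18. Several of these genes have close relatives whose transcripts can share probe signal, so members of a family are not independent readings.

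Whether the genes share promoter letters was read from promoter windows of the GRCm38.p6 build, from 250 bases before to 50 after a start site. That start site can differ from the start of the gene in RefSeq. Capitals mark every match on either strand to GAAA, any 2 bases and GAAA (ISRE). On the other strand this reads TTTC, any 2 bases and TTTC. Every match to TTCNNNGAA (GAS, the same on both strands) is also in capitals. The windows shown are those of the 3 GTPases with the smallest p that had an entry. They are Gbp7 at chr3:142530086-142530385 (plus strand), Irgm2 at chr11:58214727-58215026 (plus strand) and Gbp3 at chr3:142559794-142560093 (plus strand), each ending inside the first transcribed bases.
Gbp7: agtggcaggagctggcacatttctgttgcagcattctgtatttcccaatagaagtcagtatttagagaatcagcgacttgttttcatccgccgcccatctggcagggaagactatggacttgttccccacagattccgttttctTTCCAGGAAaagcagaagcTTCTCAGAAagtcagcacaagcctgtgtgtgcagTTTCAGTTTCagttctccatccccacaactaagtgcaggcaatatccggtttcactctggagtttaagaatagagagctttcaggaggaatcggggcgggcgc
Irgm2: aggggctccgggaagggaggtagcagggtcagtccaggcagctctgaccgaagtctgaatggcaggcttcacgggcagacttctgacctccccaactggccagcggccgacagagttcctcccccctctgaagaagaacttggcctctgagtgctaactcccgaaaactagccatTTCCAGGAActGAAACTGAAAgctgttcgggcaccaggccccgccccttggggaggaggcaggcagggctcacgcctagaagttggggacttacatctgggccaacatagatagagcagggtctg
Gbp3: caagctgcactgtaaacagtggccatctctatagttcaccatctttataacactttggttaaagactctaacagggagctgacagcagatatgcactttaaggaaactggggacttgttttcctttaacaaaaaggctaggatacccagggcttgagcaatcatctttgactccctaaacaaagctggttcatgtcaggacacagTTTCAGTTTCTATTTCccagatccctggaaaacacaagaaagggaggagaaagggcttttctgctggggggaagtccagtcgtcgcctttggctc
In Gbp7, 2 GAS matches began 106 and 87 bases before the start and the ISRE match 53 bases before it. Gbp3 held 2 overlapping ISRE matches, from 45 and 39 bases before the start, and no GAS match at this start site or at its second one.

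Igtp and Irgm2 are neighbours on chromosome 11 (58199556 to 58207592 and 58214977 to 58222783). Shorter stretches, picked after the values were seen, are given because these 2 genes share the arrangement of a GAS match followed directly by an ISRE match, and because Irgm1 has only the ISRE kind. The stretches lie at chr11:58199491-58199550 (Igtp, plus strand), chr11:58214882-58214941 (Irgm2, plus strand) and chr11:48871413-48871472 (Irgm1, minus strand) of GRCm38.p6.
Igtp: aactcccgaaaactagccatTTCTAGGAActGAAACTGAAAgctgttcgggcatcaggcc
Irgm2: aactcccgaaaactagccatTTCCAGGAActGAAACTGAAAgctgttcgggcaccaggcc
Irgm1: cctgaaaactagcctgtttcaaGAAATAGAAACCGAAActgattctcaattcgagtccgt
The Igtp and Irgm2 stretches were the same at 58 of 60 bases, while their whole windows, aligned without gaps, were the same at 68.2% of 270 bases. Log2 differences for the pair were 1.25 and 1.07.

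The Ifit, Oas and Mx genes encode direct antiviral proteins, and Mx2 had the smallest p among them. Mx2 belongs to the dynamin-like GTPases of the cytoplasm, and whether these livers make a working Mx2 protein was not tested. Its log2 signals were 5.25, 5.81 and 5.47 in SHH mice 26, 28 and 31, against 5.25, 4.60 and 4.78 in GFP mice 6, 13 and 21. SHH 28 was the highest here, and SHH 26 lay above GFP 6 by less than 0.01 (difference 0.64, interval 0.17 to 1.10, 1.55-fold; limma, adjusted p = 0.556). Mx1, its nuclear relative that blocks influenza virus and is defective in most laboratory strains, stood at 3.23, 3.41 and 3.41 in SHH livers, against 2.88, 3.27 and 2.64 in GFP livers. These values lay below the median of every array (4.32 to 4.40) and SHH 26 lay inside the GFP range (difference 0.42, interval 0.04 to 0.81).

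The Oas enzymes make short oligoadenylates that switch on RNase L, which cuts RNA. Oas1g gave 4.27, 4.55 and 4.79 in the SHH livers 26, 28 and 31, against 3.90, 3.28 and 4.40 in the GFP livers 6, 13 and 21. GFP 21 lay above SHH 26, and the difference of 0.68 (interval 0.08 to 1.28, 1.60-fold) was 0.39 without GFP 13. Oas2 read 5.04, 5.11 and 5.63 in SHH livers, against 5.27, 4.83 and 5.17 in GFP livers, and only SHH 31 lay above the GFP range (difference 0.17, interval -0.26 to 0.60). Oas3 was nearly level, with 5.06, 4.85 and 5.08 in SHH livers and 5.02, 4.77 and 5.10 in GFP livers (difference 0.03, interval -0.28 to 0.35). Oasl1, which lacks the enzyme activity and in mice restrains Irf7 translation, had 5.58, 5.77 and 5.97 in SHH livers, against 5.79, 5.67 and 5.48 in GFP livers, overlapping over most of the range (difference 0.13, interval -0.21 to 0.46). For Oasl2 the SHH livers stood at 4.91, 4.46 and 4.43, against 4.60, 4.58 and 4.46 in the GFP livers, with SHH 26 alone above (difference 0.05, interval -0.30 to 0.41).

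Ifit proteins bind foreign RNA ends and stop its translation. Ifit1 had log2 signals of 6.30, 5.63 and 5.89 in SHH mice 26, 28 and 31, against 5.62, 5.70 and 6.02 in GFP mice 6, 13 and 21. SHH 26 was the only one above the GFP range, and without it the difference of 0.16 (interval -0.27 to 0.59) was -0.02. Ifit2 read 4.25, 4.07 and 4.80 in SHH livers, against 4.20, 4.15 and 4.27 in GFP livers; only SHH 31 was above the GFP range and SHH 28 was below it (difference 0.17, interval -0.25 to 0.59; -0.04 without SHH 31). Ifit3 gave 5.67, 5.56 and 5.90 in SHH livers, against 5.92, 5.40 and 5.45 in GFP livers, and GFP 6 was the highest of all (difference 0.12, interval -0.27 to 0.51). For Oas2, Oas3, Oasl1, Oasl2 and the 3 Ifit genes, the intervals reached no higher than 0.60 and all held 0.

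The windows of the 3 genes of these families with the smallest p that had an entry are shown with the same capitals, to set them beside the GTPases. They are Oas1g at chr5:120887564-120887863 (minus strand), Ifit2 at chr19:34550444-34550743 (plus strand) and Oasl1 at chr5:114922990-114923289 (plus strand) of GRCm38.p6, with a 60-base stretch of Ifit1 at chr19:34640769-34640828 (plus strand), which was picked after the values were seen for its pair of ISRE matches.
Oas1g: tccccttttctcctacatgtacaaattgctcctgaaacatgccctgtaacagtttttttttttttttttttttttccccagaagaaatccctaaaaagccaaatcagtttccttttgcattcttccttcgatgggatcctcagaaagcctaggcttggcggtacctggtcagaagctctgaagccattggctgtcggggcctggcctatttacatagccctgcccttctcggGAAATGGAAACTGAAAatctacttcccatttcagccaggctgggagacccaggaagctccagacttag
Ifit2: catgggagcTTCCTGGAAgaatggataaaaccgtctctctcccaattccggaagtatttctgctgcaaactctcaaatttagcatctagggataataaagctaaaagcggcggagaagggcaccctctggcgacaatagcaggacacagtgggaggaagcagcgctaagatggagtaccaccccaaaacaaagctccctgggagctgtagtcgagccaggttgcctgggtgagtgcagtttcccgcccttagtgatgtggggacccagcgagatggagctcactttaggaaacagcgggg
Oasl1: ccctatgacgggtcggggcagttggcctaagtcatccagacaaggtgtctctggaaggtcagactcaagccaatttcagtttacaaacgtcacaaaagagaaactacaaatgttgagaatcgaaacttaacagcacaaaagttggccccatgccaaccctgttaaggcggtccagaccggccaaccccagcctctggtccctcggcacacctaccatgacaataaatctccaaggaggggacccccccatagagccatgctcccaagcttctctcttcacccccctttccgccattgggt
Ifit1: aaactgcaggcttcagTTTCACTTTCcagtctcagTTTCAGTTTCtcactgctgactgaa
Oas1g held 2 overlapping ISRE matches, from 18 and 12 bases before the start, Ifit2 held 1 GAS match 241 bases before it, and Oasl1 held neither. The RefSeq gene starts of Ifit2 (34550550) and Oasl1 (114923143) lie upstream of the start sites of these windows. Less of the sequence before those gene starts was therefore read. Ifit1 had ISRE matches from 104 and 85 bases before its start.

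Of the 9 listed GTPases, 7 had a window, and all 7 held an ISRE match and 4 a GAS match (Gbp5, Gbp7, Igtp and Irgm2). Of the 11 listed Ifit, Oas and Mx genes, 8 had a window, with an ISRE match in 5 and a GAS match in 2 (Ifit2 and Oas1a). Over all 32851 windows, 3.44% held an ISRE match, 8.30% a GAS match and 0.454% both. These shares are per window, while the family counts are per gene with a match in any of its windows. Counted per gene, 657 of 16990 measured genes with a window had an ISRE match, 1555 a GAS match and 109 both. Gbp6, Iigp1, Oas2, Mx1 and Mx2 had no entry in the table.

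Among the measured genes of the whole list that had a window, the 6 with both kinds of match had a median difference of 0.67 (0.14 to 1.25), the 12 with an ISRE match alone 0.20 (-0.06 to 1.03) and the 6 with neither 0.19 (0.05 to 0.31). Ifit2, Irf1 and Ifi35 had a GAS match alone, with differences of 0.17, 0.51 and -0.11. Of the 6 with both, 4 were GTPases (0.44 to 1.25) and the others were Eif2ak2 (0.14) and Bst2 (0.22), while the GTPases with an ISRE match alone were Gbp3 (1.03) and Irgm1 (0.66). Across the array, the 657 measured genes with an ISRE match had a median difference of -0.004, against -0.03 for all 16990 measured genes with a window. Of those 657 genes, 6.39% were higher at an unadjusted limma p under 0.05, against 3.18% of the 16990. The 1555 genes with a GAS match had a median of -0.03, with 4.18% higher at that p, and the 109 with both matches a median of 0.008, with 9.17%. Listed genes with a window were kept in these sets, Gbp7, Irgm2 and Igtp among those with both matches. The shares are therefore not separate from the list's own values. A match is a run of letters and does not show that a factor binds there.

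As family means per liver, the GTPases stood at 6.70, 6.19 and 7.26 in SHH mice 26, 28 and 31, against 5.93, 5.98 and 5.91 in GFP mice 6, 13 and 21. The means were 6.72 ± 0.54 in SHH livers and 5.94 ± 0.04 in GFP livers (SD, n = 3 each), a difference of 0.78. It was 0.50 without SHH 31 and 1.04 without SHH 28. The Ifit, Oas and Mx means were 4.96, 4.92 and 5.14 in the SHH livers, against 4.84, 4.62 and 4.78 in the GFP livers, a difference of 0.26, with SDs of 0.11 over 3 livers in either group. The SHH livers lay above the GFP livers in both families. Relative to the GFP mean, the GTPases were shifted by 0.76, 0.25 and 1.33 in SHH 26, 28 and 31, and the Ifit, Oas and Mx genes by 0.21, 0.17 and 0.39.

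The contrast between the families was taken within each liver, as the GTPase mean minus the Ifit, Oas and Mx mean. Set against its mean over GFP livers, it was shifted by 0.55, 0.08 and 0.94 in SHH 26, 28 and 31, and by -0.10, 0.16 and -0.06 in GFP 6, 13 and 21. SHH 26 and SHH 31 lay above the GFP livers and SHH 28 lay within their range, with a difference of 0.52 between the group means. The difference was 0.31 without SHH 31 and 0.74 without SHH 28, and the members were chosen with earlier results known, so it carries no p-value. Among genes above the array median on every array, 6 GTPases averaged 0.92 and 7 Ifit, Oas and Mx genes 0.19.

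**Figure D2:**
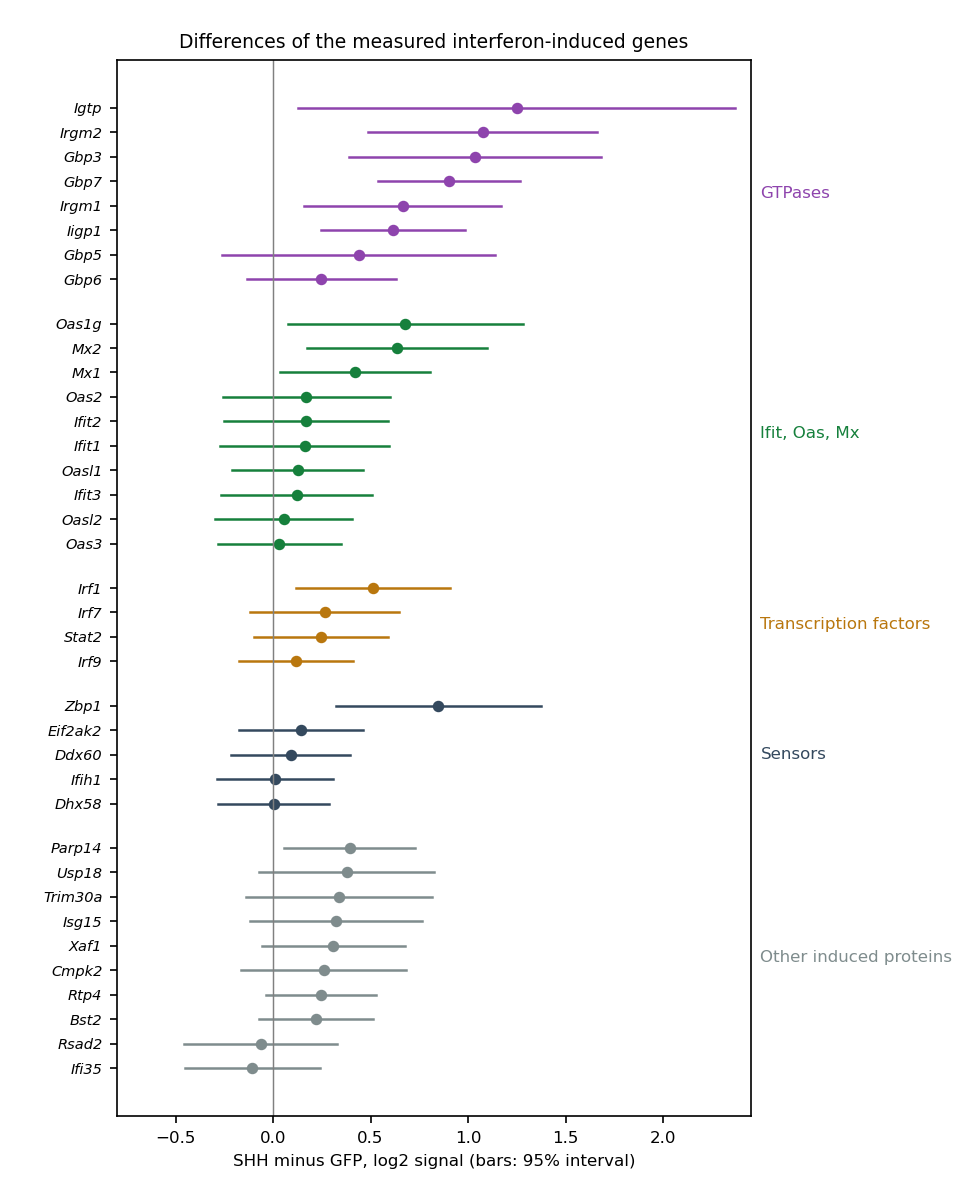
Difference of mean log2 signal, SHH minus GFP (points), with 95% limma intervals (bars), for the 37 measured genes grouped by role. The GTPases reach from 0.25 to 1.25, and the lowest points are Rsad2 (-0.06) and Ifi35 (-0.11).

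Of the 4 transcription factors, all had higher means and 1 was higher at an unadjusted limma p under 0.05, against 43.8% and 3.33% of all genes. Irf1, which carries the interferon-gamma signal on to later genes, read 6.85, 6.99 and 7.42 in SHH mice 26, 28 and 31, against 6.47, 6.46 and 6.78 in GFP mice 6, 13 and 21. All SHH livers lay above the GFP livers (difference 0.51, interval 0.12 to 0.91, 1.43-fold; limma, adjusted p = 0.586). The stretch of its promoter at chr11:53769899-53769958 (plus strand, GRCm38.p6) is given for its GAS match, which began 90 bases before the start.
Irf1: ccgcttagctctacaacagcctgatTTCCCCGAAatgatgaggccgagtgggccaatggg
Irf7, the amplifier of type I interferon genes, had 6.44, 6.45 and 6.93 in SHH livers, against 6.42, 6.46 and 6.15 in GFP livers, with SHH 31 alone clearly above (difference 0.26, interval -0.12 to 0.65). Stat2, which carries type I signals as part of the ISRE-binding factor, was at 7.29, 7.65 and 7.81 in SHH livers and 7.37, 7.33 and 7.32 in GFP livers, so SHH 26 lay below all GFP livers (difference 0.25, interval -0.10 to 0.59). Irf9, its DNA-binding partner, gave 7.02, 6.85 and 6.82 in SHH livers, against 6.65, 6.80 and 6.90 in GFP livers, with overlap (difference 0.12, interval -0.17 to 0.41).

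Zbp1 stood apart among the 5 nucleic acid sensors. Zbp1, which senses Z-form nucleic acid and can start necroptosis, had 5.94, 6.23 and 6.95 in SHH mice 26, 28 and 31, against 5.48, 5.63 and 5.46 in GFP mice 6, 13 and 21. The groups did not overlap (difference 0.85, interval 0.32 to 1.37, 1.80-fold; limma, adjusted p = 0.504), and the difference was 0.56 without SHH 31. Eif2ak2, the kinase PKR that halts translation on double-stranded RNA, read 6.64, 6.93 and 6.56 in SHH livers and 6.46, 6.62 and 6.63 in GFP livers (difference 0.14, interval -0.18 to 0.46). Ddx60, a helicase, had 5.97, 5.71 and 5.77 in SHH livers and 5.88, 5.63 and 5.65 in GFP livers (difference 0.09, interval -0.21 to 0.40). Both pairs overlapped. Ifih1, which encodes the RNA sensor MDA5, stood at 8.21, 8.34 and 8.01 in SHH livers and 8.16, 8.12 and 8.24 in GFP livers, and Dhx58, its regulator LGP2, ranged from 5.45 to 5.61 in SHH livers and from 5.39 to 5.64 in GFP livers. Their differences were 0.01 (interval -0.29 to 0.31) and 0.003 (interval -0.28 to 0.29).

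Of the 10 other measured proteins, 8 had higher means and 1 was higher at an unadjusted limma p under 0.05, against 43.8% and 3.33% of all genes. Parp14, an ADP-ribosyltransferase, gave 7.53, 7.47 and 7.80 in SHH mice 26, 28 and 31, against 7.27, 7.0 and 7.34 in GFP mice 6, 13 and 21. No GFP liver reached the SHH livers (difference 0.39, interval 0.06 to 0.73; limma, adjusted p = 0.634). Rtp4, a broadly induced antiviral gene, was at 7.32, 7.06 and 7.13 in SHH livers, against 6.95, 6.94 and 6.87 in GFP livers, also without overlap (difference 0.25, interval -0.04 to 0.53). Xaf1, a partner of the apoptosis inhibitor XIAP, read 5.40, 5.36 and 5.63 in SHH livers, against 5.46, 4.97 and 5.03 in GFP livers (difference 0.31, interval -0.06 to 0.68). Usp18, which strips Isg15 from proteins and damps the type I receptor, had 6.11, 5.80 and 6.56 in SHH livers, against 5.60, 5.95 and 5.80 in GFP livers (difference 0.38, interval -0.07 to 0.83). For Xaf1 and Usp18 the groups overlapped, and SHH 31 was the highest liver of both.

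Isg15, the ubiquitin-like protein that is a standard readout of type I interferon, ranged from 5.27 to 5.97 in SHH livers and from 5.10 to 5.53 in GFP livers (difference 0.32, interval -0.12 to 0.76). Its promoter is given at chr4:156200856-156200915 (minus strand, GRCm38.p6) because it held 3 overlapping ISRE matches and no GAS match.
Isg15: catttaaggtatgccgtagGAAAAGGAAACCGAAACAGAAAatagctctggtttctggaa
Bst2, the tether that holds virus particles at the membrane, ranged from 9.91 to 10.20 in SHH livers, above 9.76 to 9.89 in GFP livers (difference 0.22, interval -0.07 to 0.51). Trim30a, a ubiquitin ligase, ranged from 4.70 to 4.74 in SHH livers, inside the GFP range of 3.89 to 4.80 (difference 0.34). Cmpk2, a mitochondrial nucleotide kinase, ranged from 5.71 to 6.17 in SHH livers and from 5.47 to 6.05 in GFP livers (difference 0.26). Rsad2, the antiviral enzyme viperin, and Ifi35 had lower means in SHH livers, by -0.06 (interval -0.46 to 0.33) and -0.11 (interval -0.45 to 0.24). For Ifi35 the difference was 0.04 without SHH 26.

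Further GTPases of the same families, outside the list of 40, were read next. Of 10 measured, 9 had higher means, against 43.8% of all genes, with a median difference of 0.81. At an unadjusted limma p under 0.05, 4 were higher, against 3.33% of all genes. Gbp8 stood at 6.14, 5.61 and 7.55 in SHH mice 26, 28 and 31, against 4.93, 5.07 and 4.29 in GFP mice 6, 13 and 21 (difference 1.67, interval 0.68 to 2.65, 3.18-fold; limma, adjusted p = 0.473). Gbp2b had 6.06, 5.20 and 7.08 in SHH livers, against 5.08, 4.84 and 4.65 in GFP livers (difference 1.26, interval 0.37 to 2.14). Neither gene's groups overlapped, and the liver order within SHH was that of the listed GTPases. Gbp11 gave 7.49, 7.11 and 8.48 in SHH livers, against 7.32, 5.64 and 5.21 in GFP livers, where GFP 6 lay above SHH 28 (difference 1.64, interval 0.45 to 2.83). Gm12250, a further immunity-related GTPase, differed by 0.88 (interval 0.11 to 1.66). Gm4951 and F830016B08Rik differed by 0.07 and -0.01. The mean shifts of these 10 genes were 0.73, 0.19 and 1.52 in SHH 26, 28 and 31, and the mean difference of 0.81 was 0.46 without SHH 31.

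The 9 further Ifit and Oas genes had a median difference of 0.01, with 5 higher and 4 lower means, where 43.8% of all genes had higher means. At an unadjusted limma p under 0.05 there were 0 of the 9, against 3.33% of all genes higher. Those with the smallest p were Oas1h (-0.28), Oas1d (-0.35), Oas1c (0.23) and Oas1e (0.17). Of the 9 genes, 8 lay below the median of every array, so these differences say little.

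**Figure D3:**
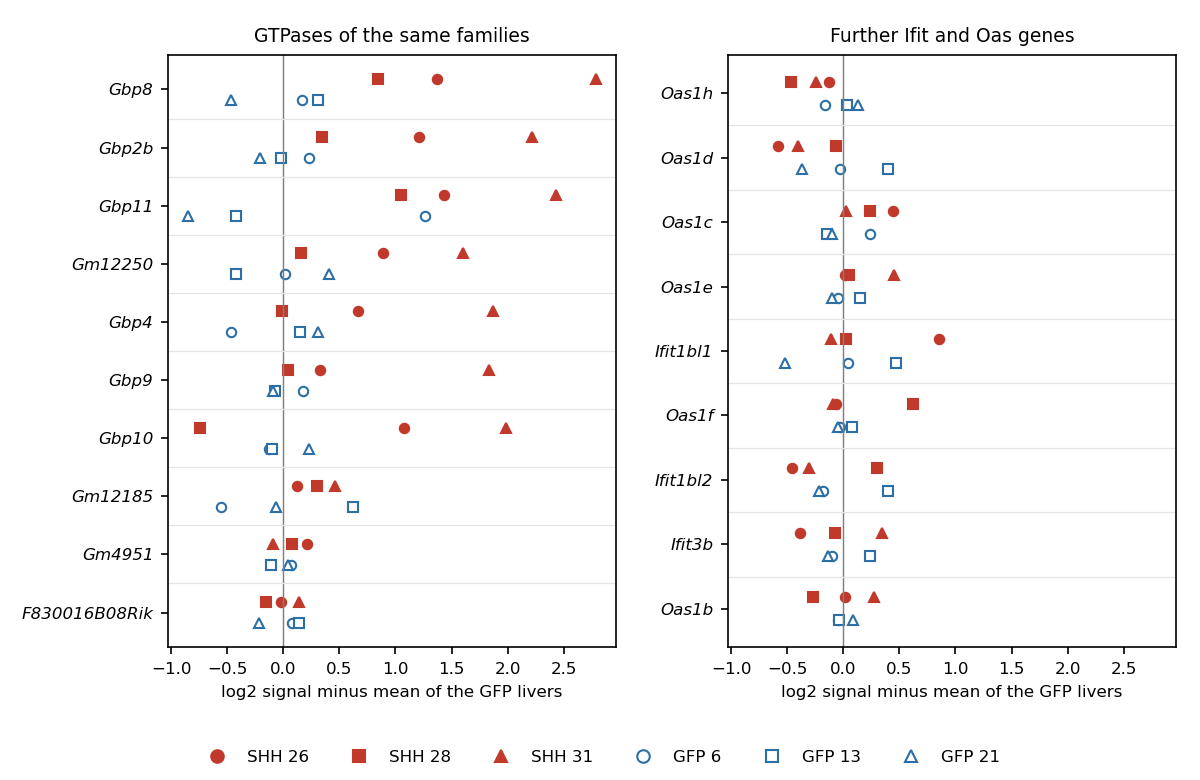
Log2 signal minus the GFP mean (x axis) for 10 further GTPases and 9 further Ifit and Oas genes that are not on the list, SHH livers (red, filled) above GFP livers (blue, open), 1 point per mouse. The largest difference is that of Gbp8 (1.67), and the Ifit and Oas points of the 2 groups overlap in every row.

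Genes upstream of these were read next. Of 19 measured interferon genes, 10 had higher and 9 lower means, where 43.8% of all genes had higher means. Only 1 was higher at an unadjusted limma p under 0.05, against 3.33% of all genes, so these counts lay near the background. Of the 19, 6 were under the lower quartile on all 6 arrays. Ifng, which encodes interferon-gamma, was at 2.77, 2.51 and 2.95 in SHH mice 26, 28 and 31 and 2.77, 2.17 and 2.64 in GFP mice 6, 13 and 21 (difference 0.22, interval -0.20 to 0.64), and Ifnb1 ranged from 2.14 to 2.62 in SHH livers and from 2.27 to 2.63 in GFP livers. Both are among those 6, so a change could have gone undetected. Ifnl3, a type III interferon, ranged from 5.29 to 5.95 in SHH livers and from 4.78 to 5.30 in GFP livers (difference 0.62, interval 0.14 to 1.09). Ifne differed by -0.30, Ifnk by -0.35 and Ifna13 by 0.34. Ifna13 was under the lower quartile on all 6 arrays and Ifnk on 5 of them, so the differences of these genes say little.

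All 12 measured genes of receptors, their kinases and their inhibitors had higher means, where 43.8% of all genes did, with a median difference of 0.16. At an unadjusted limma p under 0.05, 2 were higher, against 3.33% of all genes. Both were subunits of the interferon-gamma receptor. Ifngr1 read 7.53, 7.62 and 7.65 in SHH mice 26, 28 and 31, against 7.27, 6.97 and 7.11 in GFP mice 6, 13 and 21 (difference 0.48, interval 0.19 to 0.77; limma, adjusted p = 0.488). Ifngr2 read 7.70, 7.72 and 7.67 in SHH livers, against 7.49, 7.40 and 7.39 in GFP livers (difference 0.27, interval 0.01 to 0.53). The SHH livers lay above the GFP livers for both and were close to each other. The type I receptor genes Ifnar1 and Ifnar2 differed by 0.02 (interval -0.29 to 0.33) and 0.14 (interval -0.13 to 0.40), and Ifnlr1, of the type III receptor, by 0.20. The phosphatase genes Ptpn2 and Ptpn6, which restrain the pathway, differed by 0.25 and 0.24.

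Of 12 measured genes of the nucleic acid sensing pathways ahead of interferon, 8 had higher means, where 43.8% of all genes did. At an unadjusted limma p under 0.05, 2 were higher, against 3.33% of all genes. Tlr7, the sensor of single-stranded RNA, differed by 0.63 (interval 0.22 to 1.03) and Tlr3, that of double-stranded RNA, by 0.32 (interval 0.02 to 0.62). The kinase gene Ikbke differed by 0.48 and the myeloid factor gene Irf8 by 0.56, each with overlapping groups.

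Interferon-gamma targets that are not GTPases had higher means for 10 of 12 genes, against 43.8% of all genes, with a median difference of 0.36. Only 1 of the 12 was higher at an unadjusted limma p under 0.05, against 3.33% of all genes. Cxcl9, the chemokine that draws in T cells and is induced chiefly by interferon-gamma, stood at 8.49, 7.36 and 10.54 in SHH mice 26, 28 and 31, against 7.61, 7.52 and 7.65 in GFP mice 6, 13 and 21. SHH 31 was far above and SHH 28 below all GFP livers (difference 1.21, interval -0.23 to 2.65). The adhesion gene Icam1 differed by 0.82 (interval 0.24 to 1.40), the regulator of class I antigen presentation Nlrc5 by 0.39 and the checkpoint ligand gene Cd274 by 0.51. The mean shifts of the 12 genes were 0.16, 0.07 and 0.90 in SHH 26, 28 and 31. Of 26 other interferon-induced genes of the type I kind, 22 had higher means, against 43.8% of all genes, with a median of 0.21. At an unadjusted limma p under 0.05, 6 were higher, against 3.33% of all genes. They included Ifi204 (0.96, interval 0.45 to 1.46), Ly6e (0.85, interval 0.37 to 1.34), Trim21 (0.39) and Ifitm3 (0.36), so genes of that kind outside the Ifit, Oas and Mx families also had higher means.

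Most markers of immune cells also had higher means. Of 15 T and natural killer cell markers, 11 had higher means in SHH livers, where 43.8% of all genes did. At an unadjusted limma p under 0.05, 3 were higher (Cd3g, Cd8a and Gzma), against 3.33% of all genes. These 3 lay below the array median on 3, 4 and 5 of the 6 arrays. The 4 markers with lower means were Klrb1c (-0.14), Prf1 (-0.10), Tbx21 (-0.05) and Eomes (-0.05). Their mean level ran from 4.09 to 4.68 in SHH livers and from 3.96 to 4.11 in GFP livers, with shifts of 0.21, 0.05 and 0.64 in SHH 26, 28 and 31. SHH 28 lay within the GFP range. Of 12 Kupffer cell and macrophage markers, all had higher means, 8 had an unadjusted limma p under 0.05 and 10 a difference over 0.5, with a median difference of 0.65. The shares of all genes were 43.8%, 3.33% and 2.10%. Their mean levels were 6.96 to 7.92 in SHH livers and 6.38 to 7.20 in GFP livers. The macrophage shifts were 0.30, 0.42 and 1.26 in SHH 26, 28 and 31, and 0.55, -0.27 and -0.28 in GFP 6, 13 and 21. SHH 31 was thus the highest liver for the macrophage markers as for the GTPases, and the next highest was GFP 6, whose GTPase shift was -0.01. SHH 31 was highest and SHH 28 lowest of the SHH livers not only for the GTPases and the T and natural killer cell markers, but also for the means of the Ifit, Oas and Mx genes and of the sinusoidal endothelial markers. In bulk liver, more cells of a type and more RNA per cell cannot be told apart.

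Neutrophil markers had higher means for 8 of 8 genes, 4 of them at an unadjusted limma p under 0.05, with mean levels of 3.56 to 4.67 in SHH livers and 3.15 to 3.41 in GFP livers, and shifts of 0.23, 1.35 and 1.22 in SHH 26, 28 and 31. Those 4, Cxcr2, Retnlg, S100a9 and S100a8, lay below the array median on 3, 4, 4 and 4 of the 6 arrays. Another 2 of the 8 markers lay below it on all 6. For this list and those that follow, 43.8% of all genes had higher means and 3.33% were higher at that p. Monocyte-derived cell markers had higher means for 7 of 8 genes, 3 of them at an unadjusted limma p under 0.05, with mean levels of 5.20 to 6.17 in SHH livers and 4.97 to 5.05 in GFP livers. Of those 3, Itgam and Ccr2 lay below the array median on 3 and 4 of the 6 arrays. Plasmacytoid dendritic cell markers, of cells that make much type I interferon, had higher means for 5 of 6 genes, with 3.45 to 4.01 in SHH livers and 3.50 to 3.55 in GFP livers. The groups overlapped for all 6, with 0 at an unadjusted limma p under 0.05. Of the 6, 3 lay below the median of every array and 2 under the lower quartile of every array, so these differences say little. Sinusoidal endothelial markers had lower means for 8 of 8, where 12457 of 22180 genes did. Their mean levels were 6.50 to 7.34 in SHH livers and 6.91 to 7.40 in GFP livers, with shifts of -0.22, -0.66 and 0.19 in SHH 26, 28 and 31. The groups overlapped for all 8, with 0 at an unadjusted limma p under 0.05, against 4.01% of all genes lower. No marker is listed at 0 on this log2 scale. The part of these cells in the interferon-induced genes was not tested.

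The 5 measured acute phase genes followed another order than the listed GTPases. Their mean shifts were 0.76, 4.61 and 3.72 in SHH 26, 28 and 31, so SHH 28 was highest and SHH 26 lowest, where SHH 28 was lowest for every listed GTPase. This order was not particular to them, since the neutrophil markers had it too. SHH 26 was also the lowest SHH liver for the macrophage and the monocyte-derived cell markers. The monocyte-derived shifts were 0.20, 0.52 and 1.17 in SHH 26, 28 and 31.

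**Figure D4:**
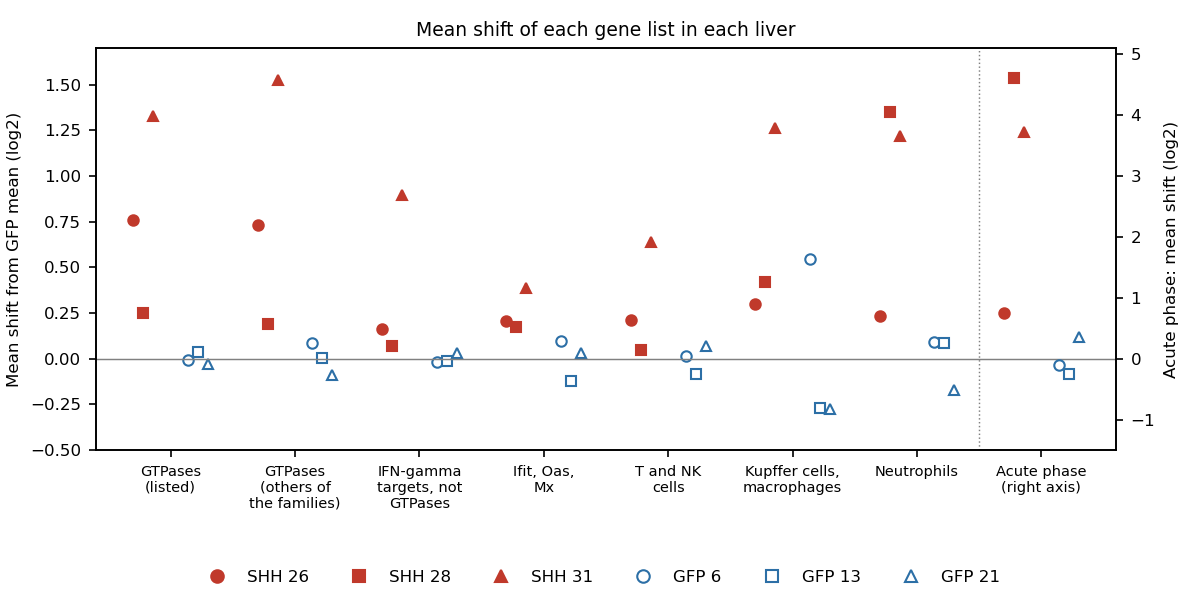
Mean shift of each gene list from its mean over GFP livers (log2, y axis; acute phase genes on the right axis), with SHH livers (red, filled) left of GFP livers (blue, open) and 1 point per mouse. For both GTPase lists, the Ifit, Oas and Mx genes, the interferon-gamma targets and the T and natural killer cell markers, SHH 31 is highest and SHH 28 lowest of the SHH livers. For the macrophage markers, the neutrophil markers and the acute phase genes, SHH 26 is lowest.

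The arrays held 41345 probe sets with medians of 4.32 to 4.40. Correlations over probe sets were 0.975 to 0.979 among SHH livers, 0.975 to 0.979 among GFP livers and 0.971 to 0.981 between the groups. Hepatocyte markers were bright in both groups, with mean levels of 12.19 to 12.33 in SHH livers and 12.18 to 12.23 in GFP livers.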

How the data were processed

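Liver RNA of 6 mice was measured on Affymetrix arrays, 1 per mouse, with SHH mice 26, 28 and 31 and GFP mice 6, 13 and 21 grouped by the labels. The deposited values are log2 signals made by the authors with RMA (background correction, equalised distributions, probe set summary), per the submitters' processing notes; no source used here gives the version or annotation. Platform annotation gave 23521 probe sets naming 1 gene, 1814 naming several and 16010 unnamed. Symbols matched through gene identifiers to RefSeq (GRCm38.p6) changed in 0 cases.

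Per gene, the probe set with the highest mean was fitted with limma 3.58.1 in R 4.3.3 (lmFit, eBayes, two-sided) over 22180 genes, with no covariate or level filter and Benjamini-Hochberg adjustment at 0.05. The script was tested on simulated data. Intervals are 95% limma intervals, SDs are over the 3 mice of a group, and folds are the antilog of the log2 difference. The number of arrays limits the precision. An exact permutation test of 3 against 3 cannot pass 0.05, so none was run.

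The members and lists were chosen with earlier results of these data known. The rule gave per-liver values for every GTPase and Ifit, Oas and Mx gene and the 4 listed genes of each other role with the smallest unadjusted p. Of each pathway list, it named the 4 genes with the smallest unadjusted p, and also Ifng, Ifnb1 and the receptor genes. Some of these are given per liver and others by their difference or range. Alternatives were other probe set choices, a level filter, other normalizations, priors, array weights and each mouse left out. No paired analysis was possible because the groups share no mouse numbers.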

Additional observations from a re-analysis of the deposited data

How the results depend on the processing

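The number of genes called over the whole array was 0 under every alternative that kept all 6 mice, and 0 to 46 with 1 mouse left out: it was 46 (30 higher, 16 lower) without SHH 26 and 0 otherwise. No listed gene passed under any alternative. With 1 mouse left out, the median difference of the measured members ran from 0.17 to 0.34, the GTPase mean difference from 0.50 to 1.04, that of the Ifit, Oas and Mx genes from 0.19 to 0.30, and the contrast of the families from 0.31 to 0.74, all positive. The count of members at an unadjusted limma p under 0.05 ran from 7 without SHH 31 to 13, against 12 with all mice. Leaving out mice was added after the data were seen for that count and for the further family genes. With 1 mouse left out, 9 genes changed sign, ranging from -0.018 to 0.32 for Ifit1, -0.042 to 0.32 for Ifit2, -0.014 to 0.28 for Oas2, -0.065 to 0.11 for Oas3, -0.10 to 0.14 for Oasl2, -0.070 to 0.10 for Ifih1, -0.071 to 0.055 for Dhx58, -0.17 to 0.10 for Rsad2 and -0.21 to 0.042 for Ifi35. Dhx58 also turned to -0.000884 after quantile normalization once more and Rsad2 to 0.00384 with array weights; the cause was not tested. The other 28 genes kept their sign in every setting. A filter at the median level left 30 of the 37 genes. No paired analysis was possible because the groups share no mouse numbers.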
